A study of Mus musculus with 7 samples.

Results

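The mRNAs of the cytoplasmic ribosomal proteins were followed through the CIRS-seq libraries of mouse embryonic stem cells (ESCs). They were taken by symbol, as Rpsa, Rplp0, Rplp1, Rplp2, or Rpl or Rps followed by digits and at most 1 lower-case letter, which gave 350 transcripts of 79 genes among the 26792 transcripts and 13218 genes of the series. Of the genes, 32 code for proteins of the small subunit (Rps, with Rpsa), 3 for the stalk of the large subunit (Rplp0, Rplp1, Rplp2) and 44 for its other proteins (Rpl). Of the transcripts, 174 are protein coding, 107 retain an intron, 61 are processed transcripts without a coding region and 8 are targets of nonsense-mediated decay. Rpl3l was not analysed here.

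Nearly all ribosomal proteins are present as a single copy per ribosome and are made in matched amounts, and their mRNAs are among the most abundant of growing cells. Nearly all of these mRNAs belong to the TOP class, which begin with a terminal oligopyrimidine tract, a C at the cap followed by an unbroken run of C and U. This tract lets the cell hold back or release the translation of all of them together, through mTOR signalling and the cap-binding protein Larp1. The genes are also known for their many processed pseudogenes, copies of the mRNA pasted into the genome, which make their reads hard to place.

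In CIRS-seq, reverse transcriptase (RT) is stopped by a modified base, and the number of cDNAs that end there is counted. DMS methylates unpaired A and C, and CMCT modifies unpaired U and, less strongly, G. All libraries came from E14 ESCs, a feeder-free line of strain 129/Ola kept with LIF, so that they stand for 1 cell line. The cells were lysed in a mild buffer and the lysate was digested with Proteinase K, so the RNA was probed without most of its proteins. The DMS libraries pooled lysate given 50 to 200 mM DMS, the CMCT libraries pooled lysate given 10 to 50 mM CMCT in another buffer, and the non-treated (NT) libraries pooled untreated lysate in both buffers. Each of the 3 had 2 replicates. RNA was depleted of rRNA and reverse transcribed from random hexamers. A further library of 1 RNA-seq sample from the same line, without probing, gave the abundance.

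The raw stop counts of all transcripts summed to 245272270 and 221675761 in NT, 229302588 and 205720379 in DMS, and 338201940 and 181944556 in CMCT, with a position listed once for each isoform. The last 25 bases of each transcript carried no count. Markers of ESCs were present in the RNA-seq library, with all 10 genes between 119 and 7032 alignments per kilobase of exon, while all 6 markers of fibroblast feeders lay under 10, the highest being Thy1 at 7.49. The 5 markers of differentiated cells lay between 2.16 and 97.1. At positions with 50 or more stops in the replicates together, the replicates had equal counts, within 1 stop, at 5.76% of positions of ribosomal protein mRNAs in NT, 6.20% in DMS and 5.32% in CMCT, and at 17.0%, 21.2% and 17.9% of positions of other coding genes. How such equal counts arose was not tested, and calls that rest on them are named below.

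The sequences below show where stops gathered in the 5′ UTR. For each mRNA the strongest stop of the 5′ UTR in the NT replicates summed was found, and up to 30 bases of the mRNA around it are printed 5′ to 3′ on mm9. The base with the counted stop is the last one before the capitals, which mark the C and U that followed it without a break. Where that last base is itself a C or U, the pyrimidine stretch of the mRNA began before the capitals. The first 6 are members with many NT stops at this position, chosen after the values were seen, and Rplp0, Rplp2 and Rpsa show the stalk and its neighbour in name.
Rps20: uccggccccuCCUUUCUgagccccggcggu, chr4:3762728-3762757, minus strand
Rps12: accgccggCCUUUUCCCCUgccgccgcc, chr10:23506988-23507015, minus strand
Rpl13: cggugcccggUCCUUUCCgcucggccguuc, chr8:125626303-125626332, plus strand
Rps21: cgagcuacuuCCUUUCUgcgcucucgcugg, chr2:179992111-179992140, plus strand
Rpl37: gggggugcuuUCUCUUCCggucucuuuggc, chr15:5066634-5066663, plus strand
Rps28: ucacgugacuCCUCUCCgccagaucgccgc, chr17:33961422-33961451, minus strand
Rplp0: augcggcccgUCUCUCgccaggcguccucg, chr5:116009513-116009542, plus strand
Rplp2: ucagcgucuuCCUUUCgccgccggacgccg, chr7:148633539-148633568, plus strand
Rpsa: ggccgcccguCCUUUCgcgcuacccgggga, chr9:120036895-120036924, plus strand

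Other members had their strongest stop elsewhere, and Rplp1 and Rps27l are given for contrast. In Rplp1 the stop was on the tenth base shown, with 5 bases between it and the start codon. In the paralog Rps27l, on the eighth base shown, the stop preceded a purine-rich stretch.
Rplp1: ccggcagucuacagcauggcuuccgucucc, chr9:61762221-61762250, minus strand
Rps27l: uaucccggaaguugcugaggggcgcucg, chr9:66793898-66793925, plus strand

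The strongest NT stop of the 5′ UTR was followed directly by 5 or more pyrimidines in 55 of 74 ribosomal protein mRNAs (74.3%) and in 172 of 2417 other coding mRNAs (7.12%). The 74 were the members with a 5′ UTR of at least 20 bases and at least 100 NT stops in it, and Rpl10l, Rpl13a, Rpl4, Rpl7 and Rps10 were not examined. The base after the stop was C in 27 of the 55 mRNAs and U in 28, and a median of 8 pyrimidines followed the stop. In most of the 55 the stop base was itself a C or U, so the stop lay within a longer pyrimidine stretch, and in the others it was a G. Both cases are counted as a stop before a pyrimidine run. The base after the stop lay a median of 36 bases before the start codon (25th and 75th percentiles, 25 and 43.5), although the annotated 5′ UTRs of these mRNAs had a median of 86 bases. A cDNA that runs to the 5′ end of its mRNA also counts as a stop on the base before that end, and the counts do not tell such ends from stops inside a longer mRNA.

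The lists of related genes differed in this measure. Of 20 other mRNAs known to carry a TOP tract, 12 had their strongest stop before a pyrimidine run, among them the elongation factors Eef1a1, Eef1b2, Eef1d, Eef1g and Eef2, the initiation factors Eif3e, Eif3k and Eif4b, and Tpt1. Of 12 ribosome assembly factors none had it there, and of 41 mitochondrial ribosomal proteins, which are made from nuclear mRNAs but serve the ribosome of mitochondria, 1 (2.44%) did, namely Mrpl30. The lists and the rule were chosen with earlier results known, so these are counts without a test.

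Each library showed the pattern. Of the 74 members, 53 and 57 had their strongest stop before a pyrimidine run in the NT replicates, 46 and 59 in DMS, and 50 and 38 in CMCT, the lowest count being that of CMCT replicate 2. With only positions that are found once in the genome, 33 of 66 members (50.0%) had it there, against 5.96% of other coding mRNAs. A position was called found once when the 25 transcript bases after it occur nowhere else in mm9.

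**Figure D1:**
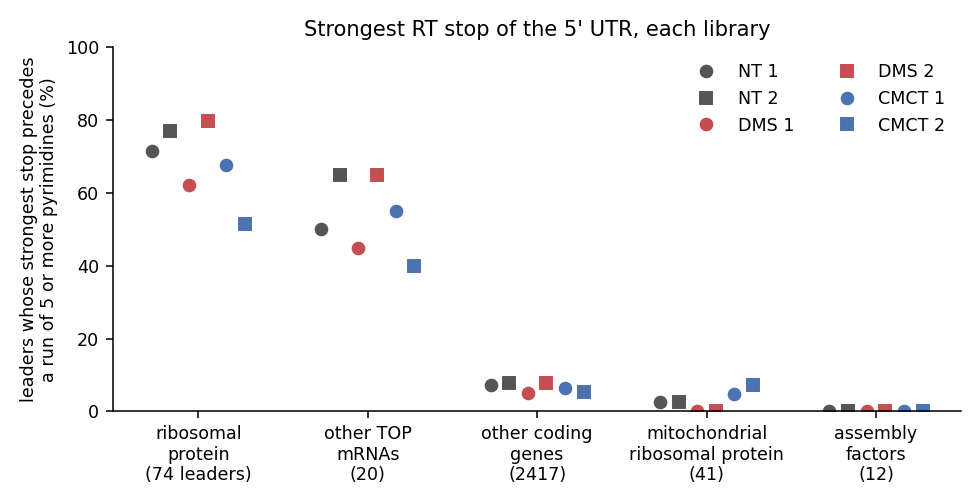
Share of 5′ UTRs (%, y axis) whose strongest RT stop precedes a run of 5 or more pyrimidines, for ribosomal protein mRNAs and 4 other groups of mRNAs (x axis, number of 5′ UTRs in brackets). Each point is 1 library. The 6 points of ribosomal protein mRNAs lie between 51.4% and 79.7%, those of the other coding genes between 5.09% and 7.86%.

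The counts at the sites printed above were large and uneven between replicates. At the Rps20 site, on the mRNA of a small-subunit protein, 17493 and 36313 stops were counted in NT, 3434 and 48467 in DMS, and 8256 and 1454 in CMCT. The DMS replicates lay on both sides of the NT replicates there, so the groups overlapped, while both CMCT replicates were lower than both NT replicates. At the Rps12 site 12255 and 6172 stops were counted in NT, 5470 and 9314 in DMS, and 5977 and 2494 in CMCT. At the Rpl13 site the counts were 6288 and 3163 in NT, 2617 and 3537 in DMS, and 3437 and 781 in CMCT. For Rpl13 and Rps12, CMCT replicate 2 held the fewest stops of all libraries.

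For the stalk protein Rplp0, the site held 751 and 659 stops in NT, 325 and 476 in DMS, and 393 and 85 in CMCT, so that all treated libraries were below both NT libraries. For its partner Rplp2 the site held 1297 and 1228 stops in NT, 474 and 1425 in DMS, and 780 and 269 in CMCT. For Rpsa, a small-subunit protein also known as a laminin receptor, the site held 664 and 448 stops in NT, 217 and 311 in DMS, and 287 and 89 in CMCT. Both CMCT libraries were below both NT libraries in these mRNAs. At the Rplp1 site without a pyrimidine run, the counts were 1192 and 1014 in NT, 864 and 698 in DMS, and 1754 and 1241 in CMCT, with both CMCT libraries highest.

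To follow the sites in libraries that did not choose them, the strongest position was taken from NT replicate 1 alone in the 53 members in which it preceded a pyrimidine run. These positions held a median of 3.65 CPM (stops scaled to the total of the library) in NT replicate 2, 2.06 and 4.31 in the DMS replicates, and 2.16 and 1.13 in the CMCT replicates. They made up a median of 32.3% of the stops of their 5′ UTR in NT replicate 2, 22.5% and 29.7% in DMS, and 25.1% and 19.1% in CMCT. The DMS replicates lay on either side of NT replicate 2 in CPM, and both CMCT replicates were below it.

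In 10 of 74 members at most 5 bases lay between the strongest NT stop and the start codon, and no pyrimidine run followed the stop. They were Rpl14, Rpl15, Rpl29, Rpl34, Rplp1, Rps15a, Rps19, Rps2, Rps23 and Rps27. The same held in 225 of 2417 other coding mRNAs. In Rps2 this position held 249 and 107 stops in NT, 318 and 438 in DMS, and 578 and 397 in CMCT. Around the start codon, the stops of 72 members were counted over the 10 bases from 5 before to 5 after the first base of the codon, counted without a position 0, as a share of the window in each mRNA. Position −1, the base before the A of AUG, took 33.9% ± 0.452 of the window in NT (SD, n = 2), and position −4 took 23.9% ± 3.68. In 645 other coding genes these were 37.8% ± 1.27 and 17.6% ± 0.497. The base after position −1 is the A of AUG, and over whole ribosomal protein mRNAs 46.1% ± 4.49 of NT stops were followed by A, which makes up 25.8% of the bases. In other coding genes 44.1% were. With positions found once it was 30.2% ± 0.779 in the members, with A at 22.7% of the bases, and 47.5% in other coding genes.

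The shares of the A and U of the start codon were then compared between reagents. At the A of AUG the share was 3.70% and 4.36% in the NT replicates, 6.60% and 13.1% in DMS, and 4.02% and 4.05% in CMCT. Both DMS replicates lay above the other libraries. At the U it was 3.29% and 4.08% in NT, 1.76% and 1.71% in DMS, and 6.55% and 5.35% in CMCT, highest in both CMCT replicates. The other coding genes had the same order, with 4.27% and 4.41% at the A in NT and 5.86% and 10.0% in DMS, and 3.24% and 4.08% at the U in NT and 5.91% and 5.30% in CMCT. With 2 libraries against 2, an exact permutation test cannot give a p under 0.333, and these shares were not tested. The A took 5.82% in NT, 7.34% in DMS and 3.66% in CMCT, as means of 2 libraries, with positions found once. At position −3, a purine in the usual context of a start codon, the mean share of the NT libraries was 5.74% ± 0.631, that of the DMS libraries 12.2% ± 2.69 and that of the CMCT libraries 5.60% ± 0.169 (SD, n = 2 each), against 6.79%, 12.1% and 6.68% in other coding genes.

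**Figure D2:**
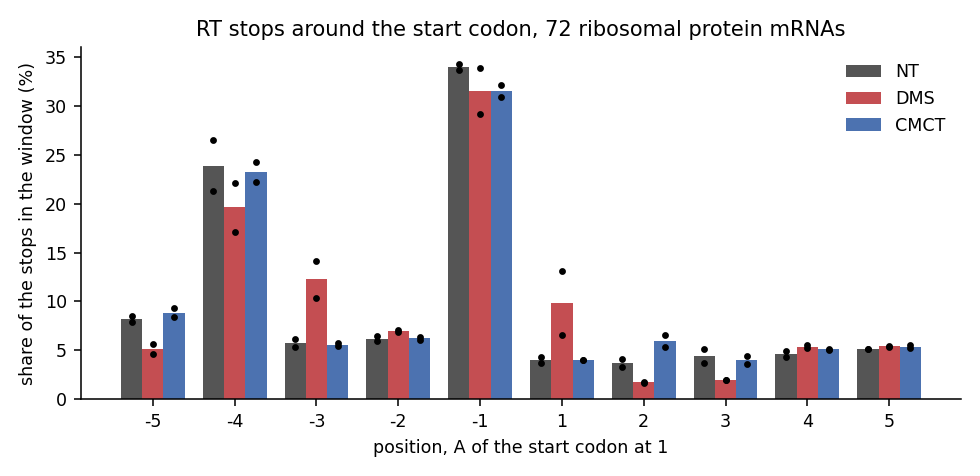
Share of RT stops (%, y axis) at each of 10 positions around the start codon (x axis, A of AUG at 1), mean over 72 ribosomal protein mRNAs. Bars are means of 2 libraries and points the single libraries. Positions −1 and −4 were highest in all 3 treatments, and position 1 was higher in both DMS libraries, at 6.60% and 13.1%, than in NT.

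The question put to whole genes was whether a reagent changed their stops relative to all other genes. Ribosomal protein genes held 0.742% and 0.531% of all stops in NT, 0.984% and 1.49% in DMS, and 0.808% and 0.729% in CMCT, with each position counted once per gene. Both DMS libraries were above all others, and the means were 0.636% ± 0.149, 1.23% ± 0.355 and 0.768% ± 0.0557 (SD, n = 2). Much of the spread in DMS came from Rps20, which held 119237 stops in DMS replicate 1 and 644857 in DMS replicate 2. After scaling by library totals and TMM factors, DMS replicate 2 had 5.61 times as many. Without Rps20 the DMS mean was 0.990% ± 0.109. With positions found once the order of the libraries was another, with 2.21% and 2.57% in NT, 1.97% and 3.90% in DMS, and 1.62% and 1.11% in CMCT, so that the DMS libraries lay on either side of NT and the CMCT libraries below it. Over the 6 libraries Rps20 took 13.4% of the members' stops, followed by Rps2 at 4.10%, Rps12 at 3.39%, Rplp0 at 2.76% and Rpsa at 2.28%.

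No member gene passed the test in DMS against NT (edgeR quasi-likelihood test, Benjamini-Hochberg adjusted p under 0.05), and 5 had an unadjusted p under 0.05. Of all genes tested, edgeR called 13.8% up and 12.5% down. DESeq2 called 15 members up and 1 down, and 2906 up and 2689 down of all 13218 genes. The log2 fold change was above 0 in 69 of 79 members, with a median of 0.30 against 0.01 over all genes, but with positions found once the medians were −0.0035 and 0.11. The smallest adjusted p was that of Rps16, a small-subunit protein, with a log2 fold change of 1.16 and an adjusted p of 0.0504 in edgeR. In CMCT against NT 1 member passed, Rpl29, a large-subunit protein, which fell by 1.06 on the log2 scale (SE 0.33, edgeR adjusted p = 0.0317). It had 10128 and 10323 stops in NT (55.9 and 63.3 CPM) and 10002 and 4885 in CMCT (40.4 and 34.8 CPM). These CPM use library totals alone, while the fold change also used the TMM factors of the fit. Of all genes 15.0% were called up and 13.9% down in CMCT, and the members had a median of 0.03 against 0.11, or −0.62 against 0.09 with positions found once. Under scaling by median ratios the median of all genes in CMCT became 0.01 and the call of Rpl29 was lost. The call was also lost when NT replicate 2, DMS replicate 1 or CMCT replicate 2 was left out.

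The distribution of stops along the mRNA was measured as stops per base in 1 coding transcript per gene, without correction for depth. In NT, the median member had 21.2 ± 5.15 stops per base in the 5′ UTR, 12.8 ± 6.57 in the coding sequence (CDS) and 0.210 ± 0.00321 in the 3′ UTR (SD, n = 2). The medians of the other coding genes were 0.207, 0.246 and 0.401, so the 3′ UTR was the lowest of the regions in the members and the highest in the others. The related lists had the order of the members in NT, with 3.92, 3.22 and 0.751 in other TOP mRNAs, 0.500, 0.471 and 0.245 in assembly factors, and 0.765, 0.394 and 0.183 in mitochondrial ribosomal proteins. The 3′ UTR was the lowest in both with positions found once, at 7.53, 7.21 and 0.0508 in the members and 0.163, 0.216 and 0.129 in the others. In DMS the members had 22.0 ± 3.06, 25.7 ± 1.27 and 0.548 ± 0.0326, and in CMCT 18.1 ± 9.40, 24.3 ± 11.0 and 0.395 ± 0.0350. The members' mRNAs were short, with medians of 84 bases of 5′ UTR, 471 of CDS and 58 of 3′ UTR against 133, 1107 and 852 in other coding genes, and 25 of the 3′ bases could not be measured.

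With CMCT the 5′ UTR lost stops relative to the rest of the regions tested. It fell in 26 of 77 members (19.9% of all 5′ UTRs did) and rose in none, with a median log2 fold change of −0.92 against −0.53 over all 5′ UTRs. 12 were Rpl mRNAs, 12 Rps mRNAs and 2 stalk mRNAs. In 17 of the 26, both CMCT libraries were below both NT libraries in CPM by library totals alone. This count is not given here over all 5′ UTRs, so it is no result about the members. The largest falls among these were those of Rpl10 (−2.08, SE 0.42, edgeR adjusted p = 0.0126), Rpl19 (−1.88), Rplp2 (−1.82), Rpl36a (−1.69), Rps4x (−1.55), Rpl13 (−1.51), Rpl12 (−1.39) and Rpl26 (−1.38). In Rpl10, whose protein joins the large subunit last and completes its catalytic centre, the 5′ UTR held 4314 and 3617 stops in NT and 2448 and 697 in CMCT. In Rpl19 it held 4394 and 4267 in NT and 3020 and 956 in CMCT, and in Rplp2 5222 and 4530 in NT and 3106 and 1344 in CMCT.

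The number of calls changed with single libraries, in the members and in all 5′ UTRs. Without NT replicate 2, 3 members fell (271 of all 4879 5′ UTRs), with a median over the members of −0.81, and without CMCT replicate 2, 2 fell (240 of 4895), with a median of −0.74, while leaving out any other library left between 19 and 30. With positions found once, 7 of 67 members fell, as did 127 of all 4297 5′ UTRs, with a median of −1.30 against −0.63. Of the 55 members whose strongest NT stop preceded a pyrimidine run, 22 fell (median −1.07). Of the other 22 members tested, which include some whose strongest stop was not examined, 4 fell (median −0.25). The NT stops that sorted the examined members are also those of the contrast, so this split is a description. Of the related lists, 29 of 69 mitochondrial ribosomal proteins, 8 of 21 other TOP mRNAs and 3 of 17 assembly factors fell in the 5′ UTR, so the fall was not particular to ribosomal protein mRNAs.

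With DMS, 4 of 77 members rose in the 5′ UTR (2.37% of all 5′ UTRs did) and 1 fell (9.96% of all). Those that rose were Rps2 (log2 fold change 1.20), Rps25 (1.17), Rps23 (1.15) and Rpl38 (1.11). In Rps2, whose 5′ UTR is 25 bases long and lacks a strong stop before a pyrimidine run, 816 and 366 stops were counted in NT and 1733 and 1750 in DMS, and the groups did not overlap. In Rpl38, a large-subunit protein, 751 and 507 stops were counted in NT and 1475 and 2111 in DMS. Rpl27 fell by 0.81, with overlapping libraries after scaling by depth. The calls were lost without NT replicate 2 or DMS replicate 2, where fewer were called over all 5′ UTRs too. The members' median was −0.35 with all libraries (−0.31 over all 5′ UTRs). With 1 library left out it ranged from −0.62 without DMS replicate 2 (−0.42 over all) to −0.18 without DMS replicate 1 (−0.27).

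The CDS of 3 of 79 members rose with DMS (7.19% of all CDS did), and none fell. They were Rps16 (1.60, SE 0.45, edgeR adjusted p = 0.0484), Rps27a (1.25), a fusion of ubiquitin with a small-subunit protein, and Rpl39l (0.95), a paralog of Rpl39. The Rps16 CDS held 9316 and 4752 stops in NT and 17770 and 36214 in DMS. The median of the members was 0.70 against 0.18 over all CDS. The calls were lost without NT replicate 2 or DMS replicate 2, where fewer rose over all CDS too. With 1 library left out, the members' median was lowest without DMS replicate 2, at 0.59 (0.25 over all CDS). It was highest without NT replicate 1, at 0.92 (0.38 over all CDS). With CMCT the CDS of Rpl39l rose by a log2 fold change of 1.06, from 119 and 67 stops to 383 and 203, the 1 call among 79 members (9.16% of all CDS rose), and without NT replicate 2 none was called.

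The 3′ UTR was measured in fewer members. With DMS 13 of 51 rose (6.38% of all 3′ UTRs did) and 1 fell (11.9% of all), with a median of 0.85 against −0.17. With CMCT 8 rose (6.97%) and 2 fell (12.1%), with a median of 0.27 against −0.01. With DMS fewer rose when any NT or DMS replicate was left out, in the members and over all 3′ UTRs. The members' DMS median was 0.67 without DMS replicate 2 (−0.15 over all 3′ UTRs) and 0.99 without DMS replicate 1 (−0.15). It was 1.27 without NT replicate 2 (0.05) and 0.63 without NT replicate 1 (−0.20). With CMCT the fewest rose without CMCT replicate 2, in the members and over all. The members' CMCT median was 0.03 without CMCT replicate 2 (−0.10 over all) and 0.45 without CMCT replicate 1 (0.08). It was 0.12 without NT replicate 1 (−0.04) and 0.65 without NT replicate 2 (0.11). None of 23 members and none of all 5241 3′ UTRs were called with DMS with positions found once. The replicates of the treated libraries were equal within 1 stop in 5 of the 14 DMS calls (Rpl23a, Rps21 and Rps3a among them) and in 4 of the 10 CMCT calls (Rpl13, Rpl15, Rpl34 and Rps18). Among the others, Rps29 had 82 and 85 stops in NT, 454 and 481 in DMS and 513 and 501 in CMCT. The treated libraries lay well above the NT libraries, with a log2 fold change of 2.03 in DMS and 2.04 in CMCT. Its replicates also had close raw counts, though not within 1 stop. In CPM the CMCT replicates were at 4.35 and 9.30 and the NT replicates at 0.947 and 1.01. In Rplp0 the 3′ UTR held 76 and 91 stops in NT, 285 and 266 in DMS and 585 and 354 in CMCT (log2 fold changes of 1.25 and 1.83), and its 5′ UTR fell with CMCT by 0.98, from 3228 and 2179 to 2383 and 1696, with libraries that overlapped in CPM.

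Rps3, a small-subunit protein at the entry of the mRNA channel, was the member whose 3′ UTR fell with both reagents, by 1.75 with DMS and by 1.93 with CMCT. It held 13131 and 13035 stops in NT, 5350 and 5406 in DMS, and 5286 and 4967 in CMCT. Of these stops 61.6% lay at 51 of its 1034 bases, whose following 25 bases have more than 100 places in the genome, up to 16168, so their stops may belong to other transcripts, which was not tested.

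**Figure D3:**
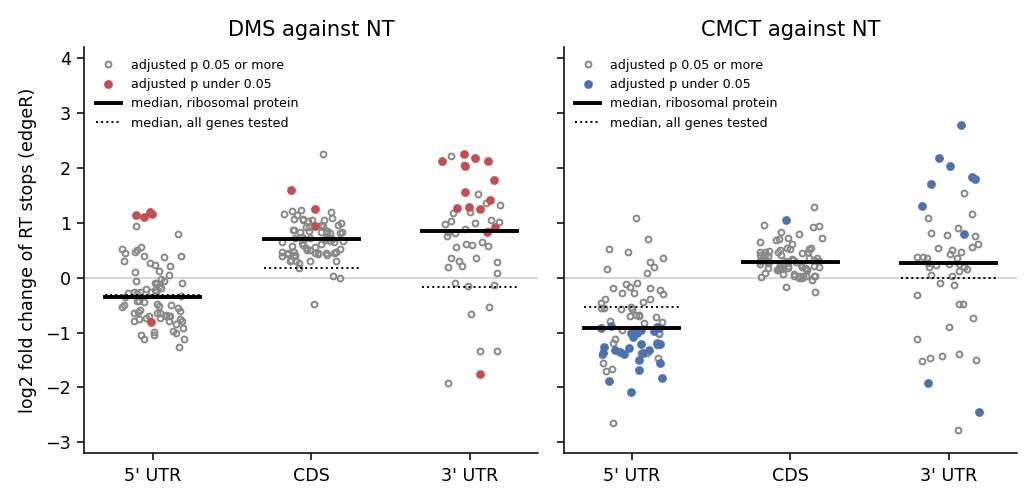
Log2 fold change of RT stops (y axis, edgeR) in the 5′ UTR, CDS and 3′ UTR (x axis) of ribosomal protein mRNAs, DMS against NT on the left and CMCT against NT on the right. Each circle is 1 mRNA, filled where the adjusted p is under 0.05, solid lines are the members' medians and dotted lines those of all genes tested. With CMCT the members' 5′ UTR median is −0.92, below −0.53 for all genes, and the CDS medians lie above 0 in both panels.

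The bases that gained stops were asked next, since DMS modifies A and C, and CMCT U and G. With DMS, stops at A rose in all 79 members in this fit (70.7% of all genes rose), by a median log2 fold change of 2.49 against 1.60 over all genes. The increase ranged from 1.29 in Rps27l to 4.64 in Rps20, and in all 79 both DMS libraries lay above both NT libraries in CPM. Leaving out a library left 77 to 79 calls. The Rpl, Rps and stalk mRNAs had medians of 2.46, 2.58 and 2.03. The related lists rose in 22 of 22 other TOP mRNAs, 16 of 17 assembly factors and 66 of 72 mitochondrial ribosomal proteins. With positions found once, 37 of 62 members rose and 2 fell, and 4335 of 6112 genes rose and 58 fell, with a median of 1.84 in the members against 1.45 over all genes.

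Rps20, Rps16, Rpl11, Rps27a, Rpl13a, Rps23, Rpl39l and Rps3a had the largest gains at A, from 4.64 in Rps20 to 3.12 in Rps3a. In Rps20 the A residues held 5249 and 6163 stops in NT, 38264 and 289253 in DMS, and 8659 and 3773 in CMCT. The DMS libraries stood above the rest and far apart from each other. In Rpl11, a protein of the large subunit that also binds Mdm2, they held 1724 and 1168 in NT, 6367 and 28136 in DMS, and 3261 and 1506 in CMCT. In Rps3a they held 1781 and 1070 in NT, 11857 and 15636 in DMS, and 4355 and 2110 in CMCT, with replicates closer together. The smallest gain, in Rps27l, went from 374 and 334 stops in NT to 758 and 1231 in DMS.

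As shares of each mRNA's own stops, which need no scaling by depth, A took 11.6% ± 0.943 in NT, 38.9% ± 10.4 in DMS and 12.1% ± 0.417 in CMCT, as means over the members (SD over 2 libraries). The DMS replicates differed, with 31.6% and 46.3%. The other coding genes had 14.6% in NT, 30.6% in DMS and 13.7% in CMCT. Counted over positions found once, the members were below the other coding genes in DMS, at 24.5% ± 4.12 against 35.1% ± 6.24, and at 10.8% and 15.7% in NT. Both DMS libraries were above both NT libraries in 79 of 79 members and in 81.0% of other coding genes. At C, the other base that DMS modifies, the share was 40.2% ± 4.82 in NT and 32.8% ± 5.78 in DMS, and both DMS libraries were above both NT libraries in 1 of 79 members and in 17.9% of other coding genes. In the fit, stops at C rose in 2 members, Rps27a (1.13) and Rpl38 (1.10), of 79 (6.68% of all genes), and stops at U fell in 1, Rpl39l (−1.14, overlapping libraries, background 16.4%). Counted over positions found once, stops at C rose in 2 and fell in 10 of 69 members (92 and 345 of all 6192 genes), those at G rose in 2 and fell in 9 of 71 (31 and 1006 of 5870), and those at U rose in 1 and fell in 12 of 66 (34 and 2077 of 6173).

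With CMCT, stops at U rose in 9 of 79 members (27.5% of all genes), namely Rps23 (1.60), Rps27a (1.53), Rps3a (1.37), Rpl10l (1.36), Rpl4 (1.34), Rpl13a (1.29), Rpl22 (1.21), Rpl29 (1.07) and Rpl38 (1.03). The median was 0.70 against 0.65 over all genes, and with positions found once it was −0.27 against 0.41. The U residues of Rps23, an mRNA whose protein sits at the decoding centre, held 2059 and 713 stops in NT, 2554 and 1322 in DMS, and 7680 and 2682 in CMCT. Those of the paralog Rpl10l held 139 and 122 in NT, 113 and 107 in DMS, and 406 and 378 in CMCT. When any library was left out, fewer were called, in the members and over all genes. The members' median then ranged from 0.57 without DMS replicate 2 (0.53 over all genes) to 0.82 without NT replicate 1 (0.66). It was 0.62 without CMCT replicate 2 (0.46) and 0.60 without NT replicate 2 (0.64). With positions found once no gene of 6173 was called, members included. As a share of the mRNA's stops, U took 32.1% ± 1.28 in NT, 18.2% ± 3.79 in DMS and 37.5% ± 0.563 in CMCT (SD, n = 2), and both CMCT libraries were above both NT libraries in 56 of 79 members (70.9%) and 71.2% of other coding genes. The other calls with CMCT were few, with a rise at A (background 10.8%) and at C (background 5.00%) in Rpl39l and a fall at G in Rpl39 (−1.28, background 10.5%).

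**Figure D4:**
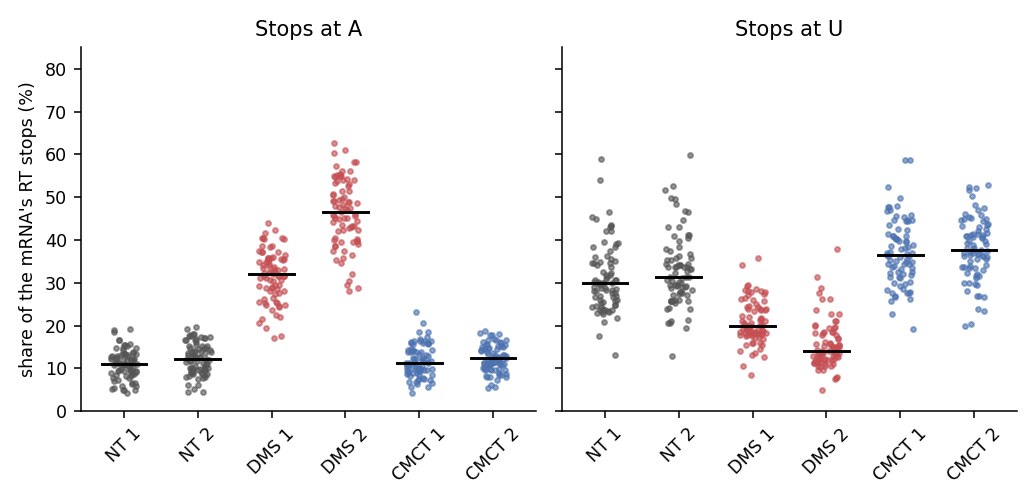
Share of each mRNA's RT stops (%, y axis) that fell on A (left) and on U (right), in the 6 libraries (x axis). Each point is 1 of 79 ribosomal protein mRNAs and lines are medians. The medians at A are 32.0% and 46.6% in the DMS libraries and 11.0% to 12.3% in the other libraries, and those at U are 36.4% and 37.6% in CMCT and 29.9% and 31.3% in NT.

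Single positions are shown from the mRNAs with the most stops at positions found once, Rps20, Rps2 and Rpl8, although the positions themselves need not be found once. For each, the coding A with the widest gap between the lower DMS and the higher NT replicate is given, and likewise the coding U for CMCT. They were chosen after the values were seen, from positions whose treated replicates were not equal within 1 stop and whose 25 bases lie in 1 exon. Each line holds 25 bases of the mRNA on mm9, with the position in capitals.
Rps20, A in codon 7: uaaagauaccggAaagacgcccgug, chr4:3762409-3762433, minus strand
Rps20, U in codon 29: ccagccgcaacgUgaagucgcugga, chr4:3762344-3762368, minus strand
Rps2, A in codon 211: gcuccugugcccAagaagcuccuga, chr17:24858157-24858181, plus strand
Rps2, U in codon 19: ggggcccaggauUagguggccgcgg, chr17:24857264-24857288, plus strand
Rpl8, A in codon 221: agcacauuggcaAacccuccaccau, chr15:76736585-76736609, plus strand
Rpl8, U in codon 189: gccuaccacaagUacaaggcaaaga, chr15:76736339-76736363, plus strand

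At the A of Rps20 codon 7, 361 and 773 stops were counted in NT, 4935 and 32060 in DMS, and 358 and 129 in CMCT, and the 25 bases that follow have 3 places in the genome. At the U of its codon 29, with 2 places, the counts were 31 and 12 in NT, 146 and 225 in DMS, and 503 and 606 in CMCT. Since the positions were chosen for the gap between treated and NT libraries, that gap is no result. At the A of Rps2 codon 211 the counts were 27 and 18 in NT, 315 and 422 in DMS, and 49 and 35 in CMCT, and the 25 bases that follow it have 32 places in the genome. At the U of its codon 19 they were 1524 and 293 in NT, 2944 and 480 in DMS, and 3469 and 2096 in CMCT, with overlap between NT and DMS. At the A of Rpl8 codon 221, with 2 places, the counts were 3 and 3 in NT, 189 and 228 in DMS, and 16 and 18 in CMCT, and at the U of its codon 189 they were 258 and 140 in NT, 423 and 182 in DMS, and 563 and 498 in CMCT. The counts of the NT and DMS libraries overlapped at this U. All these counts are raw, and the libraries differ in depth.

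A reactivity from 0 to 1 was made within each mRNA from the treated and NT counts, as the log2 of their ratio, with negative ratios set to 0 and the larger of both reagents kept. The members' median reactivity was 0.152 in the 5′ UTR (78 mRNAs), 0.441 in the CDS (79) and 0.140 in the 3′ UTR (68). The other coding genes had medians of 0.224, 0.346 and 0.231. The CDS was above the 5′ UTR in 74 of 78 members and above the 3′ UTR in 65 of 68, and in 84.6% and 89.3% of other coding genes. The other TOP mRNAs had 0.148 in the 5′ UTR and 0.431 in the CDS, the assembly factors 0.251 and 0.387, and the mitochondrial ribosomal proteins 0.238 and 0.360. In the 3′ UTR the medians of these lists were 0.283, 0.202 and 0.208. With positions found once the members had 0.254 in the 5′ UTR, 0.502 in the CDS and 0.182 in the 3′ UTR, and the other coding genes 0.232, 0.351 and 0.240, so the members were no longer lower in the 5′ UTR. A pseudocount of 5 in place of 1 gave the members 0.123, 0.422 and 0.0269 and the others 0.210, 0.329 and 0.215. With DMS read at A and C and CMCT at G and U only, the members had 0.119, 0.394 and 0.0947 and the others 0.155, 0.265 and 0.167.

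Depth differed between the groups, since the members had a median of 82.1 treated stops per base and the other genes 2.70. Among mRNAs with 59.8 to 122 treated stops per base, 39 members had medians of 0.142 in the 5′ UTR, 0.439 in the CDS and 0.147 in the 3′ UTR, and 177 other genes had 0.176, 0.360 and 0.230. Within codons the members' medians were 0.476 at the first, 0.465 at the second and 0.402 at the third base, and the first was above the third in 68 of 78 members (87.2%) and in 80.6% of other coding genes. The values have no test, because the mRNAs share their libraries.

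Stops were sparser outside the coding transcripts of these genes than in them. In 50 genes with further annotated exonic sequence, such as retained introns, this sequence had medians of 0.498 and 0.253 stops per base in the NT replicates, and the coding transcripts had 16.2 and 8.91. The coding transcripts were higher in 48 to 50 of the 50 genes in every library. As a share of the gene's stops, the further sequence held between 0.0260% in Rpl19 and 27.8% in Rpl13a. It held 27.1% in Rpl10a and 20.6% in Rps18. Introns of these genes are known hosts of small nucleolar RNAs (snoRNAs), which guide the modification of rRNA. Of 58 annotated snoRNAs in 30 members, 20 in 14 members lay within the listed transcripts over 60 or more bases, and they held between 0.0396% and 9.48% of their host's stops. The highest share was that of Snord33 in Rpl13a, at chr7:52382234-52382317, with 4536 and 4891 stops in NT, 584 and 1564 in DMS, and 3837 and 716 in CMCT. Both NT libraries were above all treated libraries there in raw counts.

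The RNA-seq library placed the members at a median of 2029 alignments per kilobase of exon, against 1927 for other TOP mRNAs, 595 for assembly factors, 216 for mitochondrial ribosomal proteins and 10.6 for all protein-coding genes. Without a second library there is no replicate check. With reads of 1 place alone the members' median was 187, and with exons of coding transcripts alone it was 2986. The lists were compared on all alignments only. The highest were Rps23 (14000), Rpl8 (12139), Rpl32 (11752), Rpl4 (10833) and Rplp1 (10356), and the lowest Rpl29 (30.2), Rpl39l (75.8), Rpl21 (85.9), Rpl7a (95.5) and Rpl35a (123). The order changed with reads of 1 place alone, where Rpl8 was the highest (10942) and Rpl28 the lowest (23.7), and Rps23 had 32.9. In the stalk, Rplp0 had 7280 alignments per kilobase and Rplp2 had 877, and Rpsa had 2468. Several of the lowest members have a much repeated sequence. No read in the RNA-seq library had more than 10 places, and 46364 reads had exactly 10. Whether reads with more places were left out or listed at only 10 of them is not known here. Whether this limit lowered the values of these members was not tested. In the 8 members whose 25-base windows have a median of more than 10 places in the genome (such as Rpl29, Rpl7a, Rps12 and Rps2) the median was 145 alignments per kilobase, and it was 2301 in the other 71.

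Stops did not follow these low values. The 8 members with many places had a median of 93.6 stops per base over the 6 libraries, and the other 71 had 68.3. Rps12 was the highest of all members in stops per base, at 634, and 70th in RNA-seq, at 226 alignments per kilobase. Rps2 was 6th in stops per base, at 212, and 74th in RNA-seq, at 136. Spearman's rho between RNA-seq and stops per base was 0.44 over the 79 genes and 0.63 over the 71 with a median of 10 or fewer places. This is a correlation across genes that share their libraries, given without a test.

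**Figure D5:**
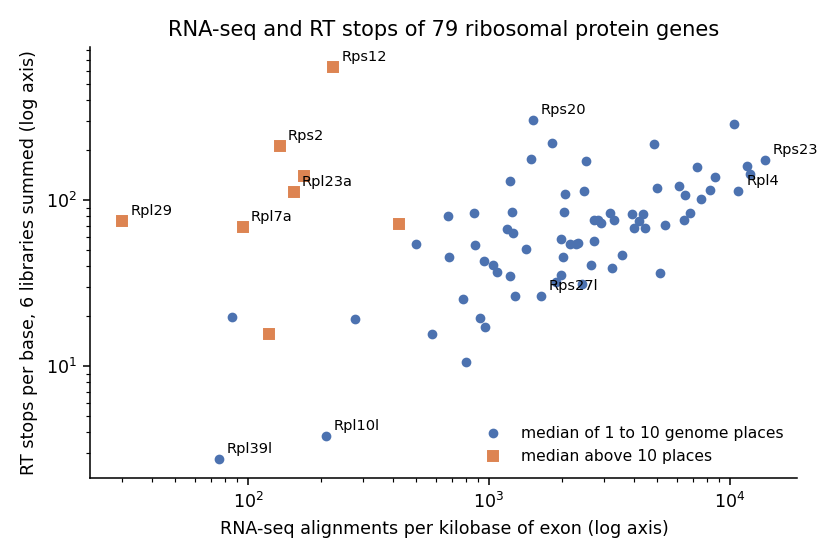
RNA-seq alignments per kilobase of exon (x axis, log) and RT stops per base summed over 6 libraries (y axis, log) of 79 ribosomal protein genes. Orange squares mark the 8 genes whose sequence has a median of more than 10 places in the genome. They lie at the left, with a median of 145 alignments per kilobase, at stops per base like those of the other genes.

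Most stops of these genes could also belong to other places of the genome. A median of 62.8% of a member's bases were found once, and a median of 11.9% of its stops lay there. Over all genes 85.6% of positions were found once, and 9.51% of stops lay there. In Rpl39l, Rpl4, Rpl8, Rps21 and Rps27l most stops lay at positions found once, and Rps27 has no such position. Where the sequence from 10 bases before to 50 bases after a position was the same in a transcript of another gene, the counts could be compared directly. This held for 14861 positions and 597 other genes, 432 of them pseudogenes. The counts were equal in all 6 libraries at 34.0% of these positions, and the median ratio of the other gene to the member was 1. At the other positions the counts of both genes differed in at least 1 library.

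The paralogs of Rpl39, Rpl10 and Rps27 were measured apart from their parent genes. Rpl39l, known from testis, had 75.8 alignments per kilobase and 290 and 202 stops in NT, 376 and 382 in DMS, and 621 and 363 in CMCT, the fewest of all members. The intronless Rpl10l had 211 alignments per kilobase and 454 and 391 stops in NT, 613 and 587 in DMS, and 912 and 826 in CMCT. Rps27l, a p53 target related to Rps27, had 1645 alignments per kilobase and 3658 and 2780 stops in NT, 3127 and 3947 in DMS, and 4815 and 2682 in CMCT. Its replicates overlapped between treatments.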

How the data were processed

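CIRS-seq counts of 6 libraries and 1 RNA-seq library of E14 ESCs were used. The authors deposited raw counts of RT stops per position of each transcript, without normalization, placed on the modified base, and the RNA-seq data as single alignments, which were counted here. Per the labels and the paper, reads were mapped to an mm9 genome with variants of the cell line. The submitters' processing notes name Bowtie 1.0.0, FastQC 0.10.1, TopHat2 2.0.6 and bedtools 2.17.0. How CIRS-seq reads with several places were treated is not given in the sources used here. In RNA-seq, 82.2% of reads had 1 place, no read had more than 10, and all alignments listed were counted.

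Of 26827 transcripts listed, 26792 were in GENCODE vM1 on mm9, whose regions and bases were used. Within a gene every genomic position was used only once, at the larger value if its isoforms disagreed. Regions and bases used 1 coding transcript per gene, that with the longest CDS. Genes, regions and bases were each fitted over all genes with edgeR 4.0.16 in R 4.3.3 (TMM, filterByExpr, quasi-likelihood test, Benjamini-Hochberg at 0.05), 2 libraries per treatment in 1 fit. The fit of genes was tested on simulated counts, for DMS against NT only. Per the labels the replicates are numbered, and the paper calls them biological; p-values measure the spread between these libraries.

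For the reactivity, counts of both replicates plus 1 were scaled to the mRNA's mean and the log2 ratio was Winsorised at the 90th percentile. Named genes were, in each direction, the 8 that changed most among those past the threshold with libraries apart, the 5 highest and lowest in RNA-seq, the 3 with the most stops at positions found once, the stalk, Rpsa and the paralogs. The members, lists and rules were chosen with earlier results of these data known. Alternatives were positions found once, no low-count filter, the replicate number as a block, each library left out, median-ratio scaling, DESeq2 1.42.0, the longest transcript, a pseudocount of 5, DMS at A and C and CMCT at G and U only, reads with 1 place, and coding exons only. RNA-seq depth was 31857551 alignments, and the totals above set the depth of CIRS-seq. Columns of the combined replicates were not used. Single values of some members are not reported here.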

Additional observations from a re-analysis of the deposited data

How the results depend on the processing

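With positions found once, which leave fewer stops, 7 member genes were called with DMS (2 up, 5 down; 0 with all positions) and 9 with CMCT (all down; 1 with all), where 1215 up and 441 down with DMS and 794 up and 213 down with CMCT were called of all 11541 genes. It called 0 member regions with DMS (22 with all) and 9 with CMCT (37 with all), and 0 bases with CMCT (12 with all). This setting called none of all 15355 regions with DMS and none of all 24347 bases with CMCT, in any gene. DESeq2 called 16 member genes with DMS (2906 up and 2689 down of all 13218) and 4 with CMCT (2554 up and 2377 down). Median-ratio scaling called 0 with CMCT (1537 up and 1163 down of all 13216). The fit without a low-count filter called 1 with DMS (1827 up and 1654 down of all 13218). The cause of these changes was not tested. With the replicate number as a block, 5 and 2 genes, 44 and 47 regions, and 85 and 21 bases were called with DMS and CMCT. Of the genes 5 rose with DMS and 2 fell with CMCT, where of all 13216 genes 2598 rose and 3018 fell with DMS and 2680 rose and 2350 fell with CMCT. Of the regions 38 rose and 6 fell with DMS (1408 and 1564 of all 16881) and 14 rose and 33 fell with CMCT (1697 and 1961). Of the bases 83 rose and 2 fell with DMS (6391 and 3385 of all 27868) and 19 rose and 2 fell with CMCT (5004 and 2733). The main fit did not pair libraries by number. Deviations of same-numbered libraries had correlations of 0.553 (NT and DMS), 0.0101 (NT and CMCT) and −0.107 (DMS and CMCT). Same-numbered NT and DMS libraries deviated together, and the labels do not say whether the numbers mark pairs. Leaving out 1 library gave 0 to 2 genes with DMS and 0 to 3 with CMCT, 2 to 30 and 8 to 42 regions, and 79 to 85 and 0 to 8 bases. The fewest member regions were called with DMS without DMS replicate 2 and with CMCT without CMCT replicate 2. Over all regions fewer rose and fewer fell in these fits too, so the drop was not particular to the members. Stops at A with DMS were called up in 77 to 79 members in every fit made of bases but that with positions found once, which gave 37 up and 2 down of 62. Chosen after the data were seen were leaving out positions with equal replicates and the lowest-numbered complete coding transcript. Leaving out positions with equal replicates gave 0 member genes with DMS (1184 up and 636 down of all 13185) and 1 with CMCT (1208 up and 954 down). Of 32 described shares, levels and reactivities, 27 moved by more than the spread between replicates with positions found once. The reactivity medians of all 3 regions moved with a pseudocount of 5 and with DMS at A and C and CMCT at G and U only, and the RNA-seq median with reads of 1 place and with coding exons only. The 3′ UTR was tested in 51 of 79 members, and in 69 without the low-count filter.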
